A study of Mus musculus with 31 samples.

Results

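The comparison described here sets cDC2, the type 2 conventional dendritic cells, against CD11c-negative macrophages, both sorted from infarcted mouse hearts. Its members were taken by sample title: 3 libraries of cDC2 and 4 libraries of CD11c-negative cells from hearts after myocardial infarction (MI), 7 of the 31 libraries of the series. MI cDC2 (n = 3) and MI macrophages (n = 4) came from the hearts of Balb/c animals, 8 to 12 weeks old, whose left anterior descending coronary artery had been tied off permanently. Steady state (SS) cDC2 (n = 4) and SS macrophages (n = 4), from hearts of the same strain and age range labelled as steady state, were used for a second comparison, and CD11c-positive monocyte-derived cells of infarcted hearts (MI moDC, n = 4) only for levels set side by side. The labels name the CD11c-negative sort both as macrophages and as monocyte-derived cells. The sources used here do not give the sorting antibodies, the time after ligation, the sex of the mice or any pooling of hearts. Replicates are called independent by the submitters, without saying whether each is a separate animal. The p-values therefore measure the spread between libraries, estimated over all 31 in the main fit.

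Conventional dendritic cells arise from Flt3-dependent bone marrow precursors, take up antigen in tissues, and carry it through lymph vessels to T cells, a journey guided by the chemokine receptor CCR7. The cDC2 branch depends largely on the transcription factor IRF4 and presents peptides on MHC class II to CD4+ T cells. Cardiac macrophages depend on the CSF1 receptor, clear dying cells and debris after an infarct, and are partly long-lived residents of the tissue and partly descendants of blood monocytes.

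Each library held 9148624 to 16531349 reads in genes over the whole series. In the 3 cDC2 libraries the totals were 10317346, 9877484 and 10364357 reads, and in the 4 macrophage libraries 10595290, 9542071, 9148624 and 15671670 reads. On log2 CPM, reads per 1000000 reads in genes, the first principal component of the 7 libraries held 60.5% of the variance and separated cDC2 (79.2 to 92.0) from macrophages (-74.4 to -55.6). Macrophage replicate 4, the deepest library, stood apart on the second component (13.9% of the variance) at 77.96, where the other libraries lay between -32.5 and 5.98. Its results are therefore also given without it where that matters. Levels below are CPM on library sizes scaled by TMM factors, and are compared between libraries. Where a summed list is said to be mostly 1 gene, that is its share of the list's reads and no comparison of transcript abundance between genes.

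Of 13039 genes tested, 1804 (13.8%) were called higher and 1643 (12.6%) lower in MI cDC2 than in MI macrophages, at a Benjamini-Hochberg adjusted p under 0.05 in edgeR's quasi-likelihood test. Of these calls, 880 higher and 1061 lower ones were of at least 2-fold (6.75% and 8.14% of all tested genes). Those of at least 4-fold were 494 and 563 (3.79% and 4.32% of all tested genes). The median fitted difference over all genes was -0.03 on the log2 scale. Every cDC2 library lay above every macrophage library in 2382 of all tested genes (18.3%), and below in 2296 (17.6%), called or not. A list's counts and any lack of overlap below are to be read against these shares. The gene lists stand for known roles and were chosen with earlier results of these data known. A fold change is the fitted one unless a group had 3 reads or fewer: with 1 to 3 reads it is the ratio of counts with its exact interval, and with none a lower bound ("at least") against 3 reads over the whole group. In sorted bulk samples, fewer cells of a type and less RNA of that type per cell cannot be told apart.

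**Figure D1:**
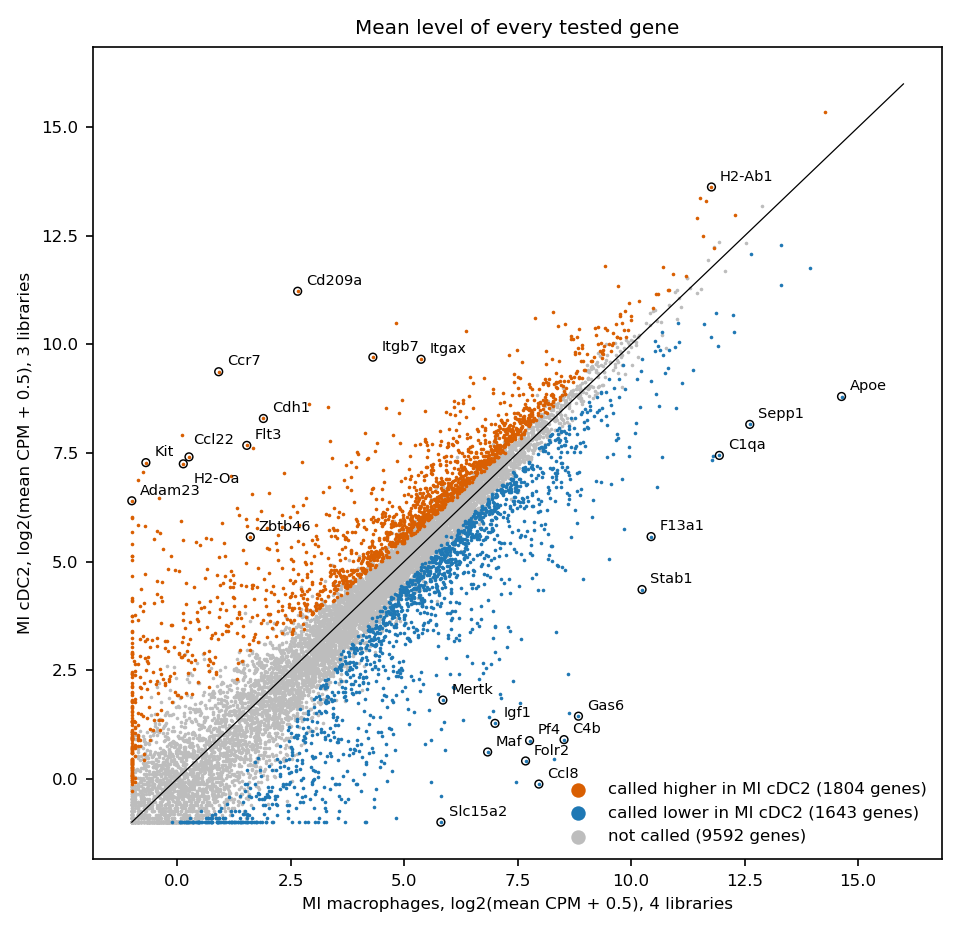
Mean level of each of the 13039 tested genes in MI cDC2 (vertical axis, mean of 3 libraries) and in MI macrophages (horizontal axis, mean of 4 libraries), both as log2(mean CPM + 0.5). Genes called higher in cDC2 (1804, orange) lie above the line of equal level and genes called lower (1643, blue) below it, with dendritic cell genes such as Cd209a and Ccr7 at the upper left and macrophage genes such as Apoe and Gas6 at the lower right.

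The sorted populations carried the genes their labels call for. Flt3, the receptor for the dendritic cell growth factor FLT3 ligand, had 217, 195 and 199.8 CPM in the cDC2 libraries, against 3.49, 2.14, 2.68 and 1.26 CPM in the macrophage libraries (87.0-fold higher, log2 6.44 ± 0.34 (SE), adjusted p = 1.58e-14). Zbtb46, a transcription factor gene of conventional dendritic cells, had 43.9, 50.4 and 46.7 CPM in cDC2 and 2.48, 2.85, 2.17 and 2.72 CPM in macrophages (18.3-fold, adjusted p = 1.15e-12). Cd209a, a C-type lectin gene of mouse cDC2, had 2023, 2393 and 2765 CPM in cDC2 and 6.34, 7.44, 0.928 and 8.47 CPM in macrophages (404-fold, adjusted p = 1.23e-13). In each of these genes every cDC2 library lay above every macrophage library. Irf4 (5.06-fold), Ciita (4.77-fold), the kynurenine pathway gene Kmo (5.05-fold) and the peptidase gene Dpp4 (39.8-fold) were also higher without overlap.

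Itgax, which codes for CD11c, had 851, 775 and 798 CPM in cDC2 and 61.9, 40.9, 23.9 and 37.0 CPM in the CD11c-negative sort (19.7-fold, adjusted p = 1.05e-13), so its transcript was low but present in cells sorted as lacking the protein. The cDC1 genes Xcr1 (2.54 to 3.77 CPM) and Clec9a (0 to 0.771 CPM) were near 0 in the cDC2 libraries, where MI cDC1 averaged 995 ± 59.1 and 196 ± 9.48 CPM (SD, n = 4). Low as it was, Xcr1 was 6.405-fold higher in cDC2 than in macrophages (adjusted p = 0.00175), 9.98-fold without macrophage replicate 3, and did not pass in a fit of the 7 libraries alone (adjusted p = 0.0638). On the macrophage side, Adgre1 (the F4/80 antigen) had 110.3, 66.7 and 137 CPM in cDC2 and 1554, 1330.1, 1648 and 1554 CPM in macrophages (14.5-fold lower, adjusted p = 1.05e-13), and Mertk, an apoptotic cell receptor, 6.68, 1.09 and 1.25 CPM in cDC2 and 55.2, 66.9, 52.8 and 54.4 CPM in macrophages (18.9-fold lower, adjusted p = 2.76e-06). Mertk transcript in cDC2 came mostly from replicate 1, and the gene was 48.7-fold without cDC2 replicate 1. C5ar1 (22.3-fold), Csf1r (3.95-fold), Fcgr1 (3.83-fold) and Cd14 (2.01-fold) were lower in cDC2 without overlap. Of these markers Cd68 differed least, at 556 to 647 CPM in cDC2 against 679 to 766 CPM in macrophages (1.24-fold lower, adjusted p = 0.0394), and it did not pass without any of macrophage replicates 1, 3 and 4 or cDC2 replicates 2 and 3 (adjusted p 0.0705, 0.0665, 0.0783, 0.154 and 0.149) or without a low-count filter (0.06).

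**Figure D2:**
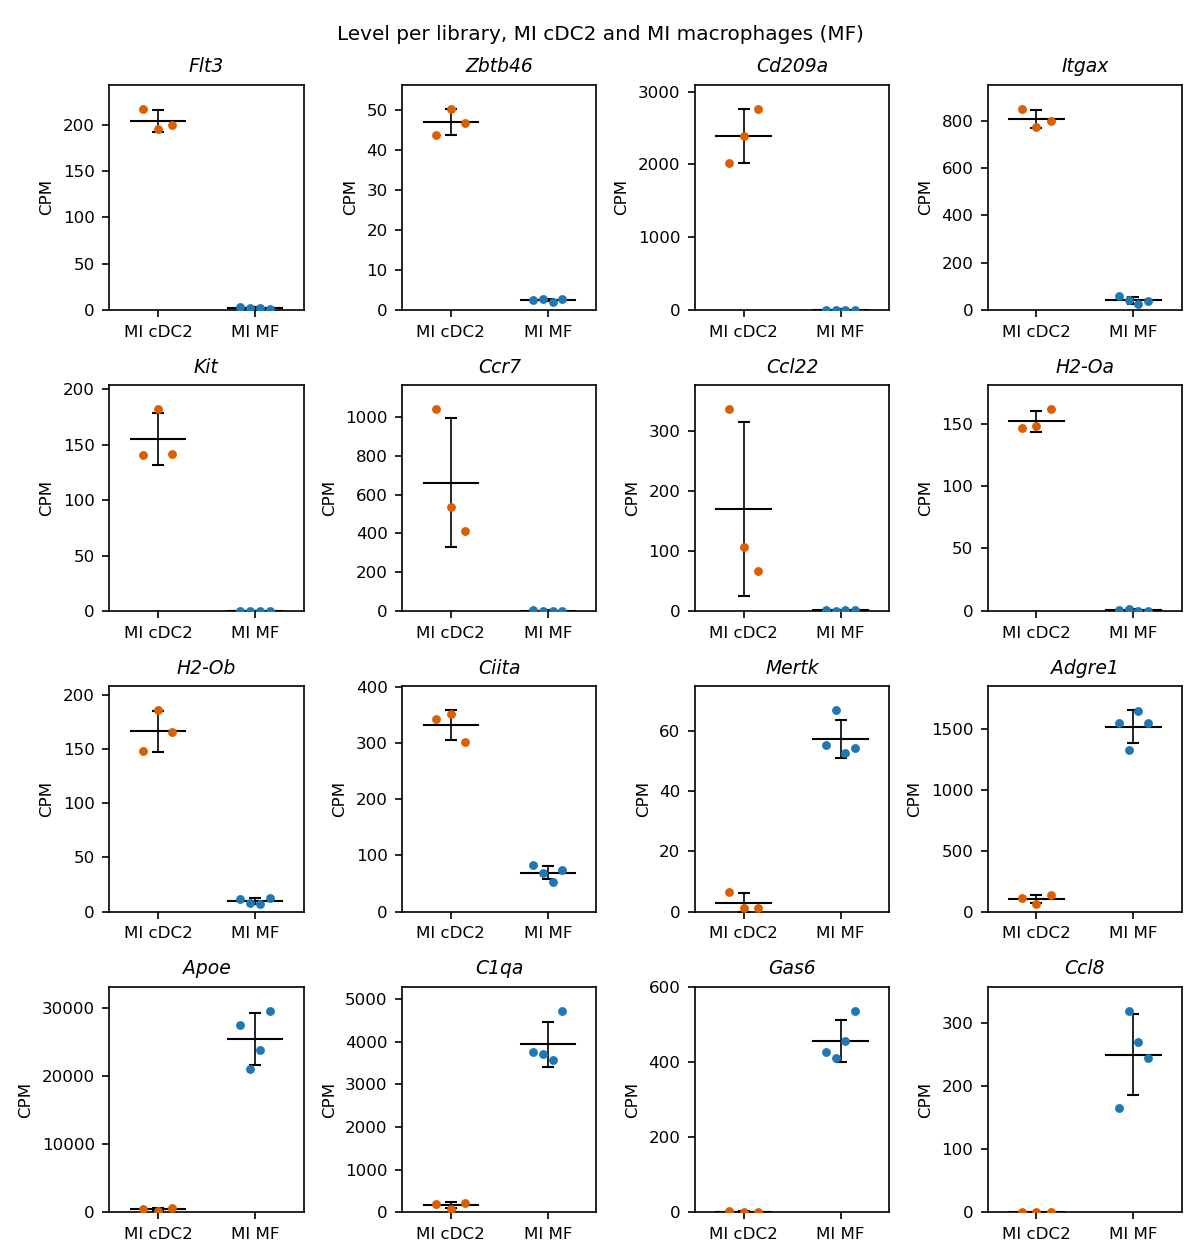
CPM of 16 genes in each MI cDC2 library (left, orange, n = 3) and each MI macrophage library (right, blue, n = 4), with the mean as a bar and the SD as whiskers, every axis starting at 0. In no panel do the groups overlap, and in Ccr7 and Ccl22 the cDC2 libraries are spread widely, from 412 to 1040 and from 66.8 to 336 CPM.

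Transcripts of other cells differed between the sorts as well. Summed over 11 cardiomyocyte genes, cDC2 libraries held 5.55 to 13.5 CPM and macrophage libraries 61.7 to 146 CPM, and 8 of the 10 tested were called lower, none of the 11 being at 0 in cDC2. The 11 fibroblast genes summed to 1146 to 1453 CPM in cDC2 against 590.4 to 717 CPM in macrophages, nearly all of it Gsn, which is not particular to fibroblasts. Without Gsn the sums were 4.56 to 6.68 CPM in cDC2 against 56.0 to 93.8 CPM in macrophages. The 10 natural killer and innate lymphoid genes summed to 108 to 118 CPM in cDC2 against 19.2 to 29.1 CPM in macrophages, and 4 of the 9 tested were called higher and 0 lower. In cDC2 these reads lay mainly in Il7r, Klrk1 and Klrb1c, and Gzma was at 0 in both groups. The 10 T cell genes summed to 10.8 to 27.2 CPM in cDC2, mostly Tcf7, against 1.63 to 4.17 CPM in macrophages, and 5 of them, Cd3e, Cd3d and Cd3g included, were at 0 in cDC2. Sums were lower in cDC2 without overlap for 11 neutrophil genes (20.6 to 31.3 against 147 to 191 CPM, mostly Csf3r, with S100a9, Ngp and Camp at 0 in cDC2) and 9 B cell genes (4.24 to 6.94 against 22.8 to 37.4 CPM, mostly Cd79b, with Pax5 at 0 in both groups). The same held for 10 red cell and platelet genes (0.992 to 2.60 against 159 to 290.3 CPM, mostly Pf4, with the 4 globin genes at 0 in both groups) and 8 plasmacytoid dendritic cell genes (147 to 158 against 181 to 227 CPM, with Tcf4 holding the most reads). Without the gene holding the most reads, the sums overlapped for the neutrophil (1.32 to 4.34 against 3.71 to 14.9 CPM), B cell (0.0942 to 0.496 against 0 to 2.37 CPM) and plasmacytoid genes (73.2 to 82.6 against 74.5 to 91.8 CPM), and did not for the red cell and platelet genes (0.377 to 0.867 against 3.40 to 15.9 CPM). Sums of cDC1 (862 to 942 against 742 to 963 CPM), endothelial (47.1 to 59.2 against 38.8 to 61.1 CPM), mural (7.04 to 11.2 against 11.1 to 40.5 CPM) and mast cell genes (0.0942 to 1.79 against 0 to 0.413 CPM) overlapped. Ppt1 held the most reads of the cDC1 list in both sorts. Without it the cDC1 sums were higher in cDC2 without overlap (475.7 to 490.6 against 232.7 to 389.7 CPM). Of the 10 cDC1 genes, 6 were called higher and 2 lower. The part of such transcripts in the results below was not tested.

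Genes shared by conventional dendritic cells had the largest share called higher of the 39 lists. Of 30 tested members, 27 were higher, 1 was lower (2 without cDC2 replicate 1) and 2 were not called, with a median difference of 3.41 on the log2 scale. Kit, the stem cell factor receptor, had 141, 182 and 142 CPM in cDC2 against 0.276, 0.204, 0 and 0 CPM in macrophages (1285-fold, adjusted p = 9.04e-10), and was 2729-fold without macrophage replicate 1 by the ratio of counts, exact 95% interval 755 to 22542. St3gal5, a ganglioside synthase gene, had 69.6, 75.6 and 86.0 CPM in cDC2 against 8.08, 7.24, 3.20 and 2.97 CPM in macrophages (14.5-fold, adjusted p = 1.05e-13). The lone member to fall was Adam19, a metalloprotease gene, at 18.3 to 29.7 CPM in cDC2 and 58.2 to 84.0 CPM in macrophages (2.85-fold lower, adjusted p = 6.72e-05).

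Among 21 genes linked to the cDC2 branch, 11 were higher, 0 lower (1 without macrophage replicate 4) and 10 not called (median log2 difference 1.86). Besides Cd209a and Irf4 these included Ltb (lymphotoxin beta, 176, 236 and 242 against 8.82, 13.2, 4.64 and 12.6 CPM, 22.1-fold, adjusted p = 7.64e-11) and Tnfsf9 (4-1BB ligand, 5.79-fold, adjusted p = 2.64e-10). Epcam and Cd7 were read in every cDC2 library and in no macrophage library. By contrast Sirpa, the surface protein often used to sort cDC2, had 1271, 1157 and 1121 CPM in cDC2 against 1816, 1498, 1448 and 1794 CPM in macrophages (adjusted p = 0.286, but 0.00748 in a fit of the 7 libraries alone), and Itgam, coding for CD11b, 663, 797 and 788 against 818, 758, 779.7 and 863 CPM (adjusted p = 0.734). The values of Sirpa lay lower in cDC2 without overlap and those of Itgam overlapped, and both genes were chosen after their values were seen.

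Lineage transcription factors split between the sorts, with 9 of 33 higher, 13 lower and 11 not called. Bhlhe40, a repressor gene active in dendritic cells and T cells, had 1299, 1419 and 1116 CPM in cDC2 against 78.5, 117, 69.9 and 63.8 CPM in macrophages (15.5-fold, adjusted p = 3.88e-10). Bcl11a, needed for dendritic cell and B cell development, stood at 66.5 to 83.7 CPM against 0.821 to 4.59 CPM (37.6-fold, 66.6-fold without macrophage replicate 1, adjusted p = 1.21e-06). On the other side, Maf, a driver of resident macrophage genes, had 0.942, 1.29 and 0.867 CPM in cDC2 and 121, 111, 140.5 and 83.7 CPM in macrophages (109-fold lower, adjusted p = 3.74e-12). Klf2 (3.81-fold lower), Cebpb (3.13-fold lower, chosen after its values were seen) and Irf8 (2.32-fold lower), a factor that marks the cDC1 branch and monocytes, were lower as well. Every macrophage library lay above every cDC2 library in these 3 genes and in Maf.

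Growth factor and cytokine receptors were higher in 11 of 30 cases and lower in 7. Il1r2, the decoy receptor for interleukin 1, had 87.8, 169 and 121 CPM in cDC2 and 1.01, 2.14, 0.516 and 3.41 CPM in macrophages (68.0-fold, adjusted p = 1.35e-07). Csf2rb, the signalling chain of the GM-CSF receptor (chosen after its values were seen), stood at 236 to 296 against 96.8 to 119 CPM (2.45-fold, adjusted p = 3.30e-06). Csf1r, the macrophage growth factor receptor, had 1352, 1101 and 1310.2 CPM in cDC2 and 4935, 4234, 4752 and 5896 CPM in macrophages (3.95-fold lower, adjusted p = 8.01e-10). Tgfbr2 (3.35-fold lower), Il10rb (2.74-fold lower) and Ifnar2 (2.27-fold lower), receptor chains for TGF-beta, interleukin 10 and type I interferon, went the same way without overlap.

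Promoters of MHC class II genes are printed next because 13 of the 20 tested genes of MHC class II presentation were higher in cDC2. That list also holds genes that are not class II chains, such as Lgmn and Ctss. Genes of class II chains share promoter boxes through which the transactivator CIITA works. The sequences are RefSeq's, on GRCm38.p6, from 130 to 21 bases before the gene start and read in the direction of the gene. Capitals mark matches to CTAGNAAC, the core of the X box, and to CTGATTGG, the Y box with its inverted CCAAT. Both strands were searched over the 300 bases from 250 before to 50 after the start.
H2-Eb1, chr17:34305737-34305846, plus strand: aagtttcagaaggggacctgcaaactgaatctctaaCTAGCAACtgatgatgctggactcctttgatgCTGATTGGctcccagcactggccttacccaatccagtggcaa
H2-Ob, chr17:34238775-34238884, plus strand: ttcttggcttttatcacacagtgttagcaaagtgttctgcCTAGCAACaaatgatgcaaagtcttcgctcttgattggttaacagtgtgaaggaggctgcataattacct
H2-DMb1, chr17:34153061-34153170, plus strand: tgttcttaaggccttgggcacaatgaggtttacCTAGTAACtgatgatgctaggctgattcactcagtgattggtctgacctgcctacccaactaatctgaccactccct
H2-Aa, chr17:34287844-34287953, minus strand: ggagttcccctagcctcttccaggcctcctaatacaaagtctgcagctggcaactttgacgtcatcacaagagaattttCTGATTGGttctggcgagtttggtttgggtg
H2-Oa, chr17:34092249-34092358, plus strand: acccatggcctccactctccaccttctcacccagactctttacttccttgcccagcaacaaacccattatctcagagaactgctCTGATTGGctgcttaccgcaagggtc
The X box letters began 94, 90 and 97 bases before the start of H2-Eb1, H2-Ob and H2-DMb1, and the Y box letters 62, 51 and 46 bases before the start of H2-Eb1, H2-Aa and H2-Oa. H2-Eb2, not printed, held both in the other order, the Y letters 103 and the X letters 12 bases before its start. Of all 32851 promoters in the table, 3.62% held the X letters, 4.10% the Y letters and 0.125% both. Of 10 class II symbols looked up, H2-Ab1 and Ciita were not matched. Of the 8 matched, 6 had at least 1 of the motifs, and H2-DMa and H2-DMb2 had neither. A match describes letters only. The reference is of another strain than Balb/c, so read counts of H2 genes, whose alleles differ, are uncertain to that extent.

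Of 20 MHC class II presentation genes tested, 13 were higher, 1 was lower and 6 were not called (median log2 difference 1.36). H2-Oa, one chain of the DO protein that restrains peptide loading, had 146, 148 and 161 CPM in cDC2 against 0.551, 1.53, 0.309 and 0 CPM in macrophages (277-fold, adjusted p = 8.71e-13, and 573-fold without macrophage replicate 2). Its partner chain H2-Ob had 148, 186 and 166 CPM in cDC2 against 11.9, 8.26, 7.53 and 12.7 CPM in macrophages (16.4-fold, log2 4.03 ± 0.21 (SE), adjusted p = 1.84e-15). For both DO chains every cDC2 library lay above every macrophage library.

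The DM chains, which load peptides, differed less: H2-DMb2 stood at 475 to 601 CPM in cDC2 against 61.6 to 107 CPM in macrophages (6.11-fold) and H2-DMb1 at 631 to 847 against 130.3 to 227 CPM (3.99-fold). The peptide-binding chains and the invariant chain, chosen after their values were seen, were high in both sorts. H2-Ab1 had 11845, 12570.3 and 13517 CPM in cDC2 against 3914, 3442, 2419 and 4198 CPM in macrophages (3.62-fold, adjusted p = 2.21e-10), H2-Aa was 3.14-fold and H2-Eb1 3.63-fold higher, and the invariant chain gene Cd74 2.099-fold higher (adjusted p = 2.11e-05). Ciita, which codes for their transactivator, had 343, 351 and 301 CPM in cDC2 and 82.5, 68.7, 53.3 and 73.3 CPM in macrophages (4.77-fold, adjusted p = 8.01e-10). Macrophage replicate 3 was the lowest library for Ciita and for each of the peptide-binding chains. The member that fell was Lgmn, a lysosomal endopeptidase, at 473, 283 and 359 CPM in cDC2 and 2016, 2017, 2006 and 2035 CPM in macrophages (5.43-fold lower, adjusted p = 6.64e-12).

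MHC class I presentation genes differed by less. Of 20, 8 were higher, 0 lower and 12 not called (median log2 difference 0.27). The peptide transporter gene Tap1 had 251, 242 and 237 CPM in cDC2 against 113, 138, 125 and 139 CPM in macrophages (1.89-fold, adjusted p = 1.43e-07), and the immunoproteasome genes Psmb8 and Psmb9 and the activator gene Psme2 were 1.88-fold, 1.67-fold and 1.52-fold higher. The heavy chain H2-K1 (514 to 608 against 429.8 to 605 CPM, adjusted p = 0.518) and the light chain B2m (1777 to 1913 against 2024 to 2451 CPM, adjusted p = 0.234), chosen after their values were seen, were not called.

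Costimulatory and coinhibitory ligands were higher for 9 of 18 and lower for 2. Tnfsf4, coding for OX40 ligand, had 16.01, 22.1 and 13.8 CPM in cDC2 and no read in any macrophage library (at least 266-fold, adjusted p = 1.38e-04). Cd274 (PD-L1) had 64.8, 60.5 and 33.4 CPM in cDC2 against 6.15, 12.4, 10.01 and 9.92 CPM in macrophages (5.49-fold, adjusted p = 8.22e-07), and Pvr (CD155) was 3.09-fold higher. Cd24a stood at 72.2 to 115 against 0 to 7.34 CPM (39.0-fold, 103-fold without macrophage replicate 2). Among the classical B7 and TNF receptor genes, chosen after their values were seen, Cd80 (16.9 to 27.2 against 5.14 to 9.39 CPM, 3.08-fold) and Cd40 (54.5 to 62.6 against 22.0 to 28.5 CPM, 2.24-fold) were higher without overlap. Cd86 had 216, 221 and 178 CPM in cDC2 against 139, 150.3, 162 and 138 CPM in macrophages (1.39-fold, adjusted p = 0.0463), a call that was lost with RLE factors (adjusted p = 0.0613), with upper-quartile factors (0.0665), without a low-count filter (0.0509), with a minimum count of 50 (0.0523) and in DESeq2 (0.0553). It was also lost without any of cDC2 replicates 1 and 2 or macrophage replicates 1, 2 and 4 (adjusted p 0.13, 0.162, 0.0957, 0.069 and 0.103). Lower in cDC2 were the genes of the checkpoint proteins VISTA (listed as 4632428N05Rik, 299 to 319 against 591 to 738 CPM, 2.12-fold) and galectin 9 (Lgals9, 1.63-fold).

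Maturation genes of migrating dendritic cells were higher for 14 of 23 tested and lower for 2, or 1 without either cDC2 replicate 2 or 3 (median log2 difference 1.92). Ccr7, the receptor that guides dendritic cells to lymph nodes, had 1039.7, 535 and 412 CPM in cDC2 against 2.57, 0.612, 0.206 and 2.15 CPM in macrophages (446-fold, adjusted p = 8.39e-07). Fscn1, coding for the actin bundler fascin, had 786, 246 and 159 CPM against 5.604, 8.56, 5.98 and 7.83 CPM (56.5-fold, adjusted p = 5.73e-05, and 28.7-fold without cDC2 replicate 1). Ccl22, a ligand of CCR4 on T cells, had 336, 107 and 66.8 CPM against 0.827, 0, 0.825 and 1.14 CPM (225-fold, adjusted p = 1.12e-05, and 114-fold without cDC2 replicate 1). In these 3 genes and in Mreg, Lad1 and Il12b, cDC2 replicate 1 was the highest cDC2 library. Ccl17, the other CCR4 ligand, had 47.6, 38.3 and 18.02 CPM in cDC2 and no reads in macrophages (at least 535-fold, adjusted p = 4.80e-09). Marcks, an actin-binding substrate of protein kinase C, was lower (483 to 707 against 1173 to 1582 CPM, 2.42-fold).

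T cell polarising cytokines moved in both directions, 3 of 14 higher and 4 lower (2 lower without any one of cDC2 replicates 1 and 3 and macrophage replicate 4). Il1b had 2221, 2785 and 2812 CPM in cDC2 against 688, 798, 801 and 1055 CPM in macrophages (3.12-fold, adjusted p = 2.64e-07). Il12b, the shared chain of interleukins 12 and 23, had 32.5, 15.9 and 5.01 CPM in cDC2 against 0.0919, 0.510, 2.17 and 4.55 CPM in macrophages (9.14-fold, adjusted p = 0.0163). Without cDC2 replicate 1 it did not pass (adjusted p = 0.108), and it was 19.4-fold without macrophage replicate 4. Il6 stood at 6.03 to 6.84 against 0.928 to 1.64 CPM (4.89-fold, adjusted p = 0.00243). Il10, an inhibitory cytokine gene, was lower in cDC2 (1.13, 1.59 and 1.16 against 11.9, 16.3, 12.997 and 2.78 CPM, 8.43-fold, adjusted p = 0.00328), with macrophage replicate 4 well below the other macrophage libraries. Of the interleukin 1 family and inflammasome genes, 5 of 19 were higher and 3 lower, among them Il1b and Il1r2 (higher) and the interleukin 18 inhibitor Il18bp (4.37-fold lower, adjusted p = 8.67e-04). The higher members were 2 without cDC2 replicate 2 and 3 without either cDC2 replicate 3 or macrophage replicate 1, and the lower members 1 without any one of cDC2 replicates 1 and 3 and macrophage replicate 4. Tnf (85.7 to 114 against 97.7 to 153 CPM, adjusted p = 0.355, chosen after its values were seen) was not called.

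Core macrophage genes were lower in cDC2 for 35 of 40 tested and higher for 0 (median log2 difference -1.88). Sepp1, which codes for selenoprotein P, had 286, 223 and 348 CPM in cDC2 against 5952, 6529, 6816 and 5785 CPM in macrophages (22.0-fold lower, log2 -4.46 ± 0.21 (SE), adjusted p = 2.05e-16). Plod1, a lysyl hydroxylase gene, and Glul, the glutamine synthetase gene, were 3.89-fold and 3.73-fold lower. Genes of resident cardiac macrophages stood farther apart, with 22 of 25 lower, 2 higher and a median difference of -5.31. Folr2, the folate receptor beta gene, had 1.51, 0.496 and 0.482 CPM in cDC2 against 153, 245, 185 and 232 CPM in macrophages (241-fold lower, 409.6-fold without cDC2 replicate 1, adjusted p = 1.31e-13). Lyve1, a hyaluronan receptor of perivascular macrophages (chosen after its values were seen), had 0, 0.397 and 0 CPM against 13.3, 23.1, 24.3 and 17.4 CPM (139-fold lower, and at least 134-fold without cDC2 replicate 2).

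The members of the resident list that were higher in cDC2 were Cd209d, a C-type lectin gene (29.3 to 57.1 against 0 to 2.85 CPM, 47.2-fold, 112-fold without macrophage replicate 2), and Timd4, the phosphatidylserine receptor gene often used to mark resident macrophages. Timd4 had 109.7, 131 and 75.7 CPM in cDC2 against 9.92, 19.9, 10.3 and 11.7 CPM in macrophages (8.15-fold, log2 3.03 ± 0.35 (SE), adjusted p = 8.38e-08). Every cDC2 library was above every macrophage library. In the steady state the same gene was lower in cDC2 (log2 -1.32, adjusted p = 0.00149).

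Complement genes were lower in cDC2 almost throughout, with 17 of 19 lower, 1 higher and a median log2 difference of -4.39. C1qa, coding for a chain of the recognition protein C1q, had 206, 85.9 and 229 CPM in cDC2 against 3755, 3717, 3572 and 4719.7 CPM in macrophages (22.7-fold lower, adjusted p = 1.12e-09), and C1qb and C1qc were 21.9-fold and 20.9-fold lower. In all 3 C1q chains cDC2 replicate 2 was the lowest library. C4b, a component of the classical pathway, had 2.26, 0.397 and 1.45 CPM in cDC2 against 264, 356, 359 and 489.8 CPM in macrophages (264-fold lower, adjusted p = 1.76e-10). C3ar1, the receptor for the C3a fragment, was 9.75-fold lower. The exception was Cfp, coding for properdin, the stabiliser of the alternative pathway convertase, at 1018, 1478 and 1454 CPM in cDC2 against 344, 629, 399 and 469.9 CPM in macrophages (2.86-fold higher, adjusted p = 2.22e-05).

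Genes for the uptake of apoptotic cells were lower for 12 of 23 and higher for 4. Gas6, the bridge between phosphatidylserine and the receptor MERTK, had 2.54, 1.88 and 2.22 CPM in cDC2 against 427, 411, 457 and 537 CPM in macrophages (205-fold lower, log2 -7.68 ± 0.33 (SE), adjusted p = 1.18e-15). Stab1, a scavenger receptor gene, had 28.8, 14.7 and 16.5 CPM against 1071, 1166, 1288 and 1316 CPM (60.5-fold lower), Trem2, a lipid receptor gene, was 12.4-fold lower and the cholesterol exporter gene Abca1 20.7-fold lower. Those that were higher in cDC2 were Timd4, the bridging protein gene Mfge8 (87.8 to 105 against 40.6 to 50.1 CPM, 2.08-fold, adjusted p = 2.18e-04), annexin A1 (Anxa1, 2.02-fold) and Tgm2 (1.95-fold). Tgm2 did not pass without macrophage replicate 1 or 3 or cDC2 replicate 1 or 2 (adjusted p 0.0622, 0.093, 0.0771 and 0.0952).

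Of 12 Fc receptor genes, 6 were lower in cDC2 and 2 higher. Fcgr3 had 166, 148 and 194 CPM in cDC2 against 692, 809, 631 and 716 CPM in macrophages (4.21-fold lower, adjusted p = 9.52e-05), and the inhibitory Fcgr2b 421 to 474 against 794 to 900.1 CPM (1.90-fold lower). Fcrls, a mouse Fc receptor-like gene, was 6.89-fold lower. C-type lectin receptors split into 11 higher, 6 lower and 16 not called of 33. Clec10a, a galactose lectin gene, had 288, 370.4 and 355 CPM in cDC2 against 53.0, 87.0, 64.1 and 53.1 CPM in macrophages (5.26-fold, adjusted p = 1.37e-08), and Clec4g (5.27 to 7.80 CPM) had no read in macrophages (at least 104-fold). Mrc1, the mannose receptor gene, had 182, 142 and 189.8 CPM against 909, 902, 1145 and 1033 CPM (5.82-fold lower, adjusted p = 1.95e-06), and Clec12a, Clec4a1 and Clec5a were 1.79-fold, 2.496-fold and 2.23-fold lower. The Cd209 genes are near-identical copies, so reads may be split or lost among them.

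Pattern sensors were more often lower: 13 of 30 fell and 4 rose. Tlr8, an endosomal RNA sensor, had 20.1, 11.3 and 18.8 CPM in cDC2 against 95.7, 106, 127 and 127 CPM in macrophages (6.79-fold lower, adjusted p = 3.53e-11). Tlr13 (4.70-fold), a sensor of bacterial ribosomal RNA in mice, and Tlr4 (4.06-fold), the endotoxin receptor, were lower, as was Unc93b1 (2.02-fold), the chaperone of endosomal Toll-like receptors. Higher were Tmem173, coding for the DNA response adaptor STING (259, 332 and 327 against 156, 166, 130.4 and 164 CPM, 1.99-fold, adjusted p = 4.59e-08), the adaptor Myd88 (1.85-fold), Nod2 (2.56-fold) and Tlr11 (10.6-fold), which in mice senses profilin. Of 8 Ms4a genes, 4 were lower (2 without either cDC2 replicate 1 or macrophage replicate 2) and 1 higher (0 without either cDC2 replicate 2 or 3), led by Ms4a7 (20.04 to 78.4 CPM in cDC2 against 788 to 1063 CPM, 17.2-fold lower, adjusted p = 8.83e-08).

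**Figure D3:**
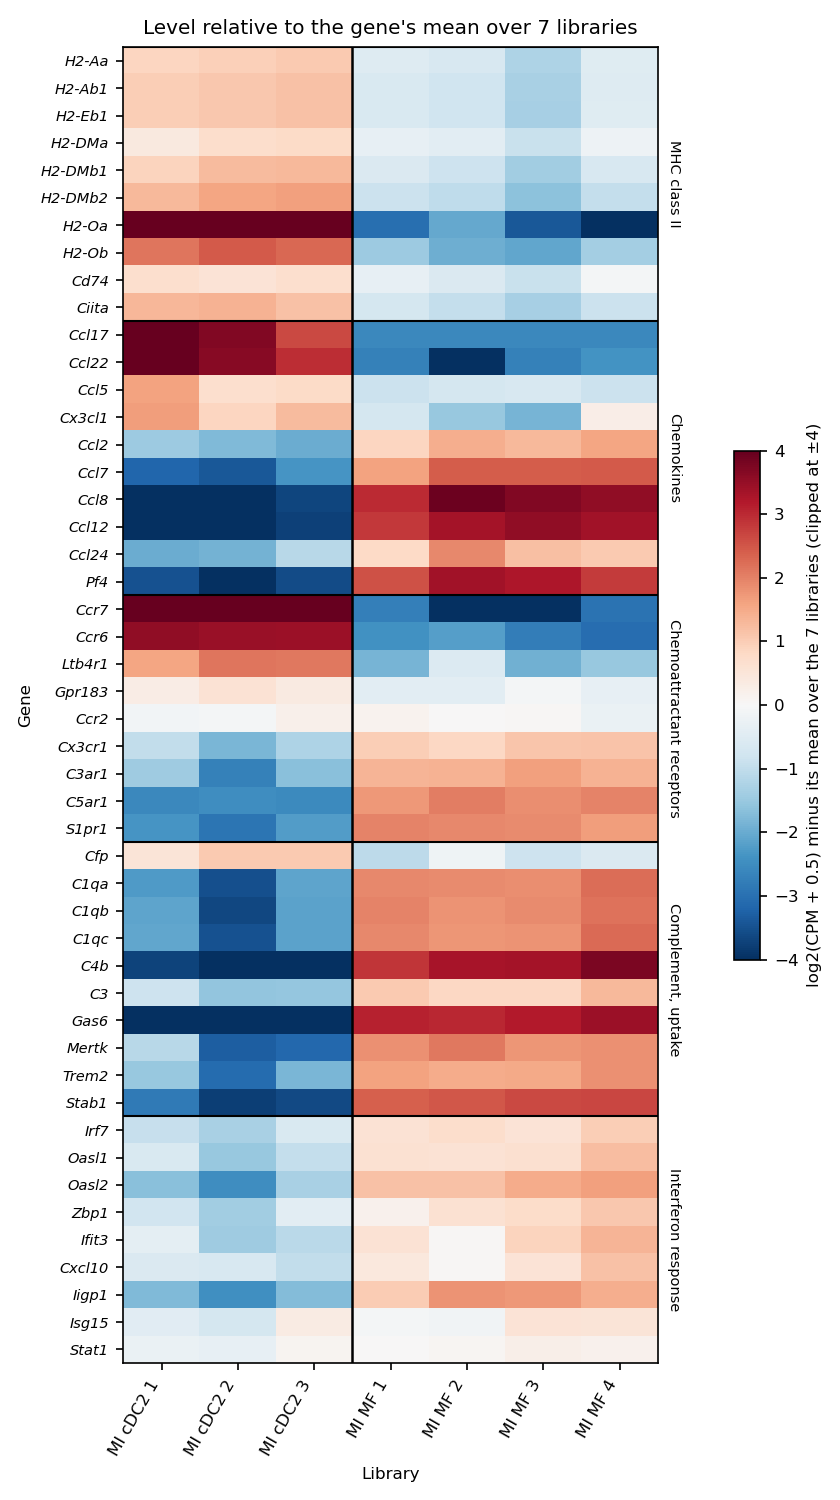
Level of 48 genes in each of the 7 libraries, MI cDC2 on the left and MI macrophages on the right, as log2(CPM + 0.5) minus the gene's mean over the 7 libraries (colour, clipped at 4 in either direction). Red marks levels above the gene's mean and blue below it. MHC class II genes are red in all 3 cDC2 libraries, C1q and Ccl8 are red in all 4 macrophage libraries, and Ccr2 is pale in all 7.

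Among CC chemokines the sorts held different genes, 3 of 12 higher and 8 lower in cDC2. Ccl8 had 0, 0.0992 and 1.16 CPM in cDC2 against 165, 319, 269.6 and 245 CPM in macrophages (581-fold lower, adjusted p = 1.17e-08). Ccl12, like Ccl2 and Ccl7 a ligand of the monocyte receptor CCR2 in mice, had 0.377, 0.0992 and 0.867 CPM against 130.4, 181, 212 and 185 CPM (384-fold lower, adjusted p = 3.56e-11). Most cDC2 reads of both came from replicate 3: Ccl8 was 5120.1-fold without cDC2 replicate 3 by the ratio of counts, exact 95% interval 919 to 202252, and Ccl12 was 699.6-fold without cDC2 replicate 3. Ccl7 had 2.73, 2.28 and 5.11 CPM against 87.9, 156, 155 and 157 CPM (41.0-fold lower), and Ccl2 22.97, 18.4 and 15.6 CPM against 115, 175, 158 and 190.5 CPM (8.397-fold lower). Ccl5, which draws effector T cells, was higher in cDC2 (39.5, 20.04 and 21.8 against 6.61, 7.54, 7.84 and 6.70 CPM, 3.78-fold, adjusted p = 0.0133) but did not pass without cDC2 replicate 1 (adjusted p = 0.0832). Ccl17 and Ccl22 are given above.

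CXC and CX3C chemokines were lower for 7 of 13 and higher for 1, a call lost without any one of 5 single libraries (macrophage replicates 1, 2 and 3 and cDC2 replicates 1 and 3). Cxcl1, which attracts neutrophils, had 25.04, 21.0 and 17.4 CPM in cDC2 against 88.7, 88.8, 106 and 110.00 CPM in macrophages (4.65-fold lower, adjusted p = 5.20e-06), and Cxcl2, with the same receptor, was 2.42-fold lower. Pf4, known from platelets and also made by macrophages, had 1.88, 0.397 and 1.73 CPM in cDC2 against 156, 274, 250.2 and 186 CPM in macrophages (159-fold lower). The other red cell and platelet genes also summed lower in cDC2, as given above, and their part in this value was not tested.

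Chemoattractant receptors were higher for 8 of 26 and lower for 9. Besides Ccr7, Ccr6, the receptor for CCL20, had 48.0, 45.1 and 44.1 CPM in cDC2 against 0.276, 0.408, 0.103 and 0 CPM in macrophages (239-fold, 365-fold without macrophage replicate 2, adjusted p = 9.27e-10). Ltb4r1, the leukotriene B4 receptor gene, was 10.2-fold higher. Lower in cDC2 were Cx3cr1, the fractalkine receptor (246, 137 and 209 against 978, 867, 1067 and 1083 CPM, 5.06-fold, adjusted p = 2.42e-09), the sphingosine 1-phosphate receptor S1pr1 (22.5-fold) and the C5a receptor C5ar1 given above. Ccr2, which brings monocytes and their progeny into inflamed tissue, had 1981, 2025 and 2439.9 CPM in cDC2 against 2361, 2168, 2193 and 1776 CPM in macrophages (log2 0.016 ± 0.14 (SE), adjusted p = 0.959, chosen after its values were seen). The 2 groups overlapped for Ccr2, and the sign of its difference turned under 7 of the alternatives run.

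Integrin and adhesion genes were higher for 10 of 24 and lower for 4. Itgb7, a partner chain of gut-homing and CD103 integrins, had 729.6, 888 and 889 CPM in cDC2 against 16.2, 30.1, 7.53 and 23.6 CPM in macrophages (43.0-fold, adjusted p = 1.10e-11), and Itgae, coding for CD103, 11.2 to 20.3 CPM in cDC2 with no read in macrophages (at least 253-fold). Cdh1, the E-cadherin gene (chosen after its values were seen), stood at 251 to 422 against 1.38 to 7.34 CPM (98.1-fold, 162-fold without macrophage replicate 2). Selplg, the selectin ligand gene, was 2.32-fold higher. Itga9, which binds tenascin and VCAM1, had 7.25, 6.05 and 5.59 CPM in cDC2 against 134, 121, 136 and 149 CPM in macrophages (21.4-fold lower), and Itga6, Itgav and Itgb5 were 8.85-fold, 2.42-fold and 4.39-fold lower.

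Monocyte genes did not move as a block, with 9 of 20 higher and 3 lower. Spn (CD43, 2.96-fold), the muscle-type enolase gene Eno3 (7.40-fold) and Ace (14.3-fold) were higher in cDC2. Lower were Thbs1, coding for thrombospondin 1 (3.95, 5.26 and 12.1 against 77.9, 201, 112 and 121 CPM, 17.9-fold, 27.7-fold without cDC2 replicate 3), Chil3 (22.7-fold, 35.7-fold without cDC2 replicate 3) and Ly6c2, a gene of classical monocytes (0, 0.0992 and 0.289 against 1.19, 18.9, 3.82 and 6.57 CPM, 54.1-fold). Ly6c2 was highest in macrophage replicate 2, and was 27.99-fold without macrophage replicate 2 and 152-fold without cDC2 replicate 3 by the ratio of counts, exact 95% interval 27.1 to 6016.

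Cathepsins and lysosomal enzymes were lower in cDC2 for 23 of 38 and higher for 5 (2 without cDC2 replicate 3, and 3 without any one of cDC2 replicate 1 and macrophage replicates 2 and 3). Ctsb, the cathepsin B gene, had 3373, 1926 and 2628 CPM in cDC2 against 10407, 9851, 9838 and 10048 CPM in macrophages (3.80-fold lower, adjusted p = 8.97e-11), the progranulin gene Grn was 2.21-fold lower and Lamp1 2.66-fold lower. Ctsh, a cathepsin with aminopeptidase activity, was higher (1343 to 1533 against 842 to 995 CPM, 1.60-fold, adjusted p = 1.85e-04). Subunits of the proton pump that acidifies lysosomes were mostly not called, with 1 of 16 higher (Atp6v0e, 1.34-fold) and 1 lower (Atp6v1a, 1.73-fold). With RLE factors 4 were lower, and single libraries left out gave up to 3 (without macrophage replicate 3), while Atp6v0e did not pass without cDC2 replicate 3 (adjusted p = 0.0568).

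Iron and heme genes were lower in cDC2 for 13 of 19 and higher for 0. Hmox1, coding for heme oxygenase 1, had 41.2, 29.2 and 35.6 CPM in cDC2 against 247, 389, 284 and 256 CPM in macrophages (8.32-fold lower, adjusted p = 1.02e-09). Slc11a1, a phagosomal metal transporter, had 72.9, 50.2 and 94.9 CPM against 399.5, 507, 359.99 and 484 CPM (6.02-fold lower), and Blvrb, a biliverdin reductase, was 4.70-fold lower. Slc40a1, the iron exporter ferroportin, was 15.3-fold lower and the ferritin light chain gene Ftl1 2.00-fold lower, both chosen after their values were seen. Cp, the ferroxidase ceruloplasmin, had 0.0942, 0.595 and 0.0963 CPM in cDC2 against 53.0, 52.1, 60.4 and 56.5 CPM in macrophages (206-fold lower), and was 583-fold without cDC2 replicate 2 by the ratio of counts, exact 95% interval 161 to 4820.2.

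Lipid handling genes were lower for 16 of 30 and higher for 3 (1 without cDC2 replicate 3). Apoe, the apolipoprotein E gene, had 508, 215 and 614 CPM in cDC2 against 27509, 20987, 23857 and 29534 CPM in macrophages (57.1-fold lower, log2 -5.84 ± 0.37 (SE), adjusted p = 1.58e-12). In cDC2, replicate 2 held the least Apoe, as it did C1q. Msr1, a scavenger receptor for modified lipoproteins, was 8.66-fold lower. Lgals3, coding for galectin 3, was higher in cDC2 (919, 878 and 909 against 473, 525, 317 and 414 CPM, 2.09-fold, adjusted p = 0.00237).

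Sterol and fatty acid synthesis genes went the other way, with 18 of 26 higher, 1 lower and a median log2 difference of 0.90. Srebf2, the transcription factor of the cholesterol pathway, had 265, 344 and 328 CPM in cDC2 against 114, 113, 89.0 and 119 CPM in macrophages (2.87-fold, adjusted p = 2.50e-10). Scd2, a fatty acid desaturase gene, was 3.28-fold higher. The member that fell was Dhcr7 (1.40-fold), which did not pass without macrophage replicate 1 or cDC2 replicate 1 or 2 (adjusted p 0.0612, 0.0954 and 0.0877).

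Of 20 eicosanoid genes, 6 were higher and 8 lower. Ptgs2, the inducible cyclooxygenase, had 344, 407 and 456 CPM in cDC2 against 109, 124, 152 and 169.96 CPM in macrophages (2.90-fold, adjusted p = 2.50e-04). Ptgs1, the constitutive cyclooxygenase, had 8.10, 9.13 and 13.1 CPM in cDC2 against 183, 165, 135 and 161 CPM in macrophages (15.9-fold lower, adjusted p = 1.20e-08). Hpgd, which breaks down prostaglandins, was 39.6-fold lower, and Pla2g15 and Pla2g7, phospholipase genes, 5.18-fold and 3.66-fold lower. The prostaglandin E2 receptor gene Ptger4 (2.05-fold) and Alox5ap (1.53-fold), the partner of 5-lipoxygenase, were higher.

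Glycolysis and hypoxia genes were higher for 10 of 28 and lower for 4. The count of higher members was 4 without cDC2 replicate 2 and 6 without either cDC2 replicate 3 or macrophage replicate 3, and that of lower members 2 without either cDC2 replicate 1 or macrophage replicate 2. Pfkp, a phosphofructokinase gene, had 194, 207 and 205 CPM in cDC2 against 65.5, 70.7, 58.8 and 52.4 CPM in macrophages (3.27-fold, adjusted p = 6.85e-09), the glucose transporter gene Slc2a1 was 2.19-fold and the lactate dehydrogenase gene Ldha 1.94-fold higher. Hk3, a hexokinase gene of myeloid cells, was 2.31-fold and Bnip3, a mitophagy receptor gene, 1.47-fold lower. Of 32 oxidative phosphorylation genes, 9 were higher and 0 lower, with Uqcrc2 (1.69-fold), Uqcrfs1 (1.54-fold), Ndufv1 (1.59-fold) and Cycs (1.59-fold) the best supported and none of these 4 reaching 2-fold, and without cDC2 replicate 2 the higher members were 5. Of 14 genes of the NADPH oxidase and nitric oxide pathways, 4 were lower, such as the oxidase core Cybb (1.55-fold), and 1 higher (Gpx1, 1.64-fold). The lower members were 1 without cDC2 replicate 2 and 2 without either cDC2 replicate 3 or macrophage replicate 2, and the higher members 2 without macrophage replicate 2.

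Arg1, the arginase 1 gene of repair macrophages, had 2.07, 10.9 and 19.8 CPM in cDC2 against 51.3, 307, 83.9 and 65.1 CPM in macrophages (11.6-fold lower, adjusted p = 0.0159). Macrophage replicate 2 held far more Arg1 than the other macrophage libraries. Without it the gene was 6.13-fold lower with an adjusted p of 0.065, it also did not pass without cDC2 replicate 1 (adjusted p = 0.0746) or 2 (adjusted p = 0.0633), and it was 19.5-fold without cDC2 replicate 3. The wider list of tissue repair and matrix genes was lower for 16 of 27 and higher for 2. Igf1, an insulin-like growth factor made by resident macrophages, had 2.17, 1.09 and 2.51 CPM in cDC2 against 125, 114, 166 and 106 CPM in macrophages (65.9-fold lower, adjusted p = 3.23e-08). Ecm1 (5.002-fold) and Timp2 (3.63-fold), coding for an extracellular matrix protein and a metalloprotease inhibitor, were lower, and Timp1 was higher (7.84-fold, 12.0-fold without macrophage replicate 2). This list holds collagen genes too, and summed fibroblast transcripts other than Gsn were lower in cDC2, as given above.

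Matrix proteases and plasminogen genes were lower for 11 of 27 and higher for 5 (8 without macrophage replicate 2). F13a1, the A chain of clotting factor XIII, had 52.3, 33.9 and 55.3 CPM in cDC2 against 1181, 1516, 1443 and 1417 CPM in macrophages (29.4-fold lower, adjusted p = 6.64e-12). Plau, the urokinase gene, was 3.98-fold lower, and the sheddase genes Adam9 and Adam17 2.43-fold and 1.63-fold lower. Mmp12, the elastase known from macrophages, was higher in cDC2, at 389.5, 262 and 376 CPM against 45.8, 32.0, 18.1 and 20.7 CPM in macrophages (11.8-fold, adjusted p = 9.38e-07). Mmp25 (11.4-fold) and Adamdec1 (4.14 to 5.95 CPM and no read in macrophages, at least 73.9-fold) were higher as well.

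Subunits and feedback inhibitors of NF-kB were higher in cDC2 for 14 of 24 and lower for 2 (median log2 difference 0.75). Nfkb1, coding for p105 and p50, had 329, 382 and 413 CPM in cDC2 against 77.4, 64.6, 65.9 and 66.1 CPM in macrophages (5.47-fold, adjusted p = 3.32e-11). Traf1, a TNF receptor adaptor, stood at 156 to 193 against 9.59 to 20.2 CPM (11.7-fold), and the feedback gene Tnip3 at 156 to 223 against 16.7 to 28.3 CPM (9.27-fold). Relb, the subunit of the alternative pathway that dendritic cells need (chosen after its values were seen), was 3.08-fold higher. Ikbke, a kinase gene of the interferon pathway, fell to 2.73, 2.88 and 4.24 CPM in cDC2, against 31.4, 35.1, 23.4 and 21.2 CPM in macrophages (8.43-fold lower, adjusted p = 9.29e-04), and Ier3 was 2.58-fold lower.

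Type I interferon response genes were lower in cDC2 for 17 of 28 and higher for 0 (median log2 difference -0.70). Irf7, the factor that amplifies the response, had 105, 80.3 and 129.7 CPM in cDC2 against 296, 319.8, 289 and 387 CPM in macrophages (3.08-fold lower, adjusted p = 2.63e-07). Oasl2, an antiviral gene, had 14.8, 8.03 and 19.3 CPM against 107, 108, 134 and 149 CPM (8.86-fold lower), and Oasl1 and the nucleic acid sensor gene Zbp1 were 3.47-fold and 2.85-fold lower. Isg15, chosen after its values were seen, was not called (13.3 to 27.8 against 19.98 to 32.1 CPM, adjusted p = 0.247). Of 21 interferon gamma response genes, 8 were lower and 0 higher, led by the GTPase genes Iigp1 (14.01-fold lower, adjusted p = 1.80e-07), Irgm2 (3.16-fold lower) and Igtp (1.90-fold lower).

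Heat shock and immediate early genes, which respond to dissociation of tissue as well as to stress in it, were called in 7 of 26 cases (4 higher and 3 lower), close to the share of all genes (26.4%). The higher members were 2 without any one of cDC2 replicates 2 and 3 and macrophage replicates 1 and 2, and the lower members 1 without any one of cDC2 replicates 2 and 3 and macrophage replicate 1. Egr3 (4.16-fold) and Nr4a1 (1618 to 1847 against 715 to 1392 CPM, 1.88-fold, adjusted p = 0.00388), transcription factors induced by receptor signalling, were higher. Of 31 cell cycle genes 4 were higher (12.9%, close to the 13.8% of all genes), 0 lower and 27 not called. Without either cDC2 replicate 1 or macrophage replicate 1, 2 were higher. The cyclins Ccnd3 (341, 461 and 402 against 74.7, 76.6, 60.3 and 76.5 CPM, 5.57-fold, adjusted p = 8.92e-12) and Ccnd2 (3.01-fold) led the higher members.

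**Figure D4:**
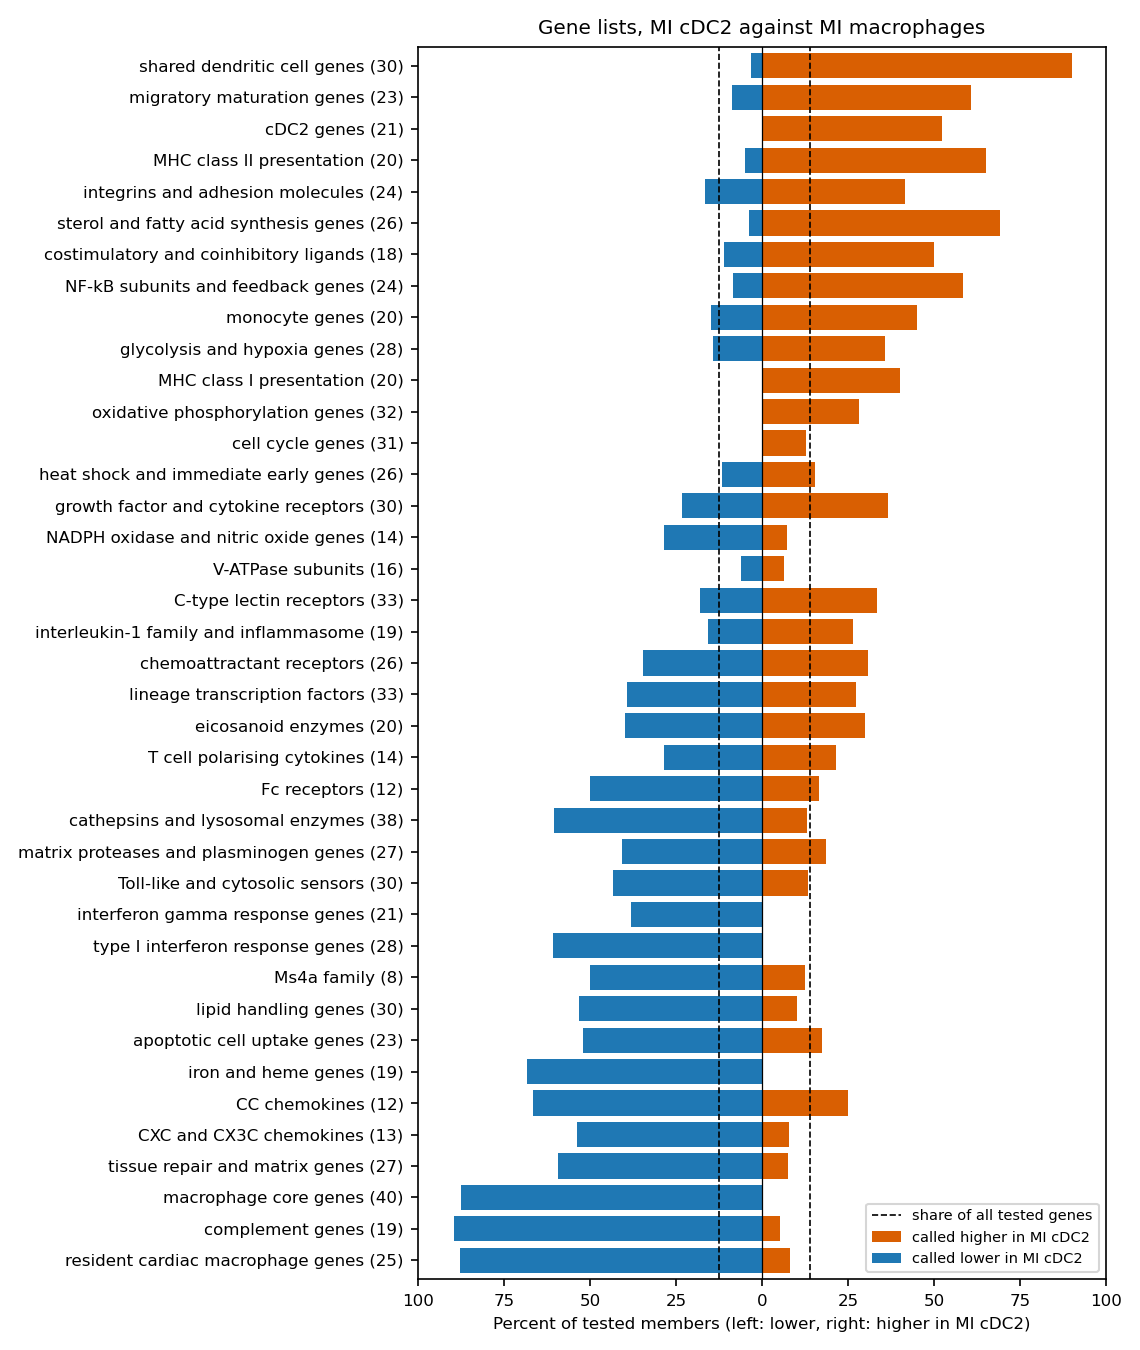
Share of tested members of each of 39 gene lists called higher (orange, to the right) or lower (blue, to the left) in MI cDC2 than in MI macrophages, with the number tested in brackets and the lists ordered by their median difference. Dashed lines mark the shares among all 13039 genes, 13.8% higher and 12.6% lower. Dendritic cell, maturation and MHC class II lists stand at the top, and macrophage, complement and resident macrophage lists at the bottom.

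By the naming rule, which takes genes reaching 10 CPM in the higher sort, most of the 12 largest rises were in genes with no read in the macrophage libraries. Their levels in the other sorts of infarcted hearts are not given here. Adam23, coding for a catalytically inactive disintegrin (chromosome 1, 63445891 to 63596276, plus strand, GRCm38), had 91.0, 80.7 and 80.2 CPM in cDC2 and no read in any macrophage library (at least 1295-fold, adjusted p = 7.72e-11). Cd7, coding for a surface protein known from T and natural killer cells, had 43.5, 67.2 and 84.7 CPM (at least 1001-fold), Epcam, an epithelial adhesion molecule also found on Langerhans cells and some dendritic cells, 55.6, 80.7 and 55.6 CPM (at least 982-fold), and Klrd1, the CD94 gene, 32.9, 45.9 and 46.0 CPM (at least 639-fold), and none of them had a macrophage read. Cd7 and Klrd1 are also genes of natural killer cells, whose marker list summed higher in cDC2, as given above, and the part of such cells in these values was not tested. Sept3 (at least 779-fold), a septin gene, Ffar2 (at least 526-fold), a receptor for short-chain fatty acids, Dennd3 (at least 499-fold) and Lpar3 (at least 386-fold), a lysophosphatidic acid receptor gene, had reads in every cDC2 library and none in macrophages, as did Ccl17 and Tnfsf4 above. Mreg, the melanoregulin gene, had 188, 87.1 and 74.6 CPM in cDC2 against 0.0919, 0.102, 0 and 0 CPM in macrophages (ratio of counts 2712-fold, exact 95% interval 750.3 to 22404). Lad1, a basement membrane protein gene, rested most on cDC2 replicate 1 (39.5, 5.95 and 4.62 CPM, at least 262-fold, and at least 81.3-fold without cDC2 replicate 1).

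In the other direction, Slc15a2, a peptide transporter gene (chromosome 16, 36750177 to 36784962, minus strand, GRCm38), had no read in the 3 cDC2 libraries against 36.8, 72.9, 63.1 and 49.5 CPM in macrophages (at least 563-fold lower, adjusted p = 1.14e-11). Chp2 (12.95, 17.7, 18.8 and 20.4 CPM in macrophages, at least 184-fold), C1qtnf1 (11.6, 15.2, 12.8 and 28.8 CPM, at least 192-fold) and Cyr61, a matricellular protein gene (10.6, 16.3, 9.18 and 13.8 CPM, at least 131-fold), also had no cDC2 read. Nrcam, a neural cell adhesion gene, had 1 read over the cDC2 libraries against 20.1, 21.2, 33.5 and 36.4 CPM in macrophages (893-fold, exact 95% interval 160.02 to 35303, lower by the ratio of counts), and was at least 201-fold without cDC2 replicate 2. C6, a complement component, was 379-fold, exact 95% interval 67.7 to 14981, lower by the ratio of counts and at least 84.1-fold without cDC2 replicate 3. Cbr2, a carbonyl reductase gene known from resident macrophages, had 1.51, 0.595 and 0.482 CPM in cDC2 against 210.5, 345, 328 and 377 CPM in macrophages (359-fold lower, 576-fold without cDC2 replicate 1, adjusted p = 7.79e-13). Ccl8, Ccl12, C4b, Folr2 and Cp, given above, complete the 12 largest falls. In all 24 genes of these 2 groups the libraries did not overlap, as the choice required.

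MI moDC, the CD11c-positive monocyte-derived cells of infarcted hearts, are set beside the 2 sorts as levels only, since a comparison with them would share libraries with this one. Flt3 averaged 204 ± 11.7 CPM in cDC2, 33.4 ± 13.4 in moDC and 2.39 ± 0.936 in macrophages (SD, n = 3, 4 and 4). Ccr7 averaged 662 ± 333, 544 ± 378 and 1.38 ± 1.15 CPM in the same order, with moDC nearer to cDC2. Apoe averaged 446 ± 207, 6319 ± 1474 and 25472 ± 3802 CPM, and C1qa 174 ± 76.9, 1631 ± 194 and 3941 ± 525 CPM. Among these sorts Nfkb1 was high in cDC2 alone, at 375 ± 42.5 CPM against 86.6 ± 4.05 in moDC and 68.5 ± 5.94 in macrophages. Mmp12 (343 ± 69.8, 605 ± 96.1 and 29.2 ± 12.7 CPM) and Lgals3 (902 ± 21.0, 1559.6 ± 142 and 432 ± 89.3 CPM) were highest in moDC. The levels of these genes in MI cDC1 are not given here.

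The same pair of sorts was compared in the steady state, the comparison most like this one. There 4594 of 13039 genes (35.2%) were called, and 70.2% of the MI calls were called in the same direction in SS, as were 52.7% of the SS calls in MI. Of the MI calls, 53 genes were called in the opposite direction in SS. The difference between the 2 comparisons was itself tested: 188 genes (1.44%) had a cDC2 minus macrophage difference that was higher in MI than in SS, and 398 (3.05%) one that was lower, 4.49% in all. SS libraries numbered 1 and 4 had more reads in no annotated feature (11.6% to 16.9% in cDC2 and macrophages) than those numbered 2 and 3 (6.42% to 9.26%). Against SS numbers 1 and 4 alone 458 genes were called, and against numbers 2 and 3 alone 507.

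**Figure D5:**
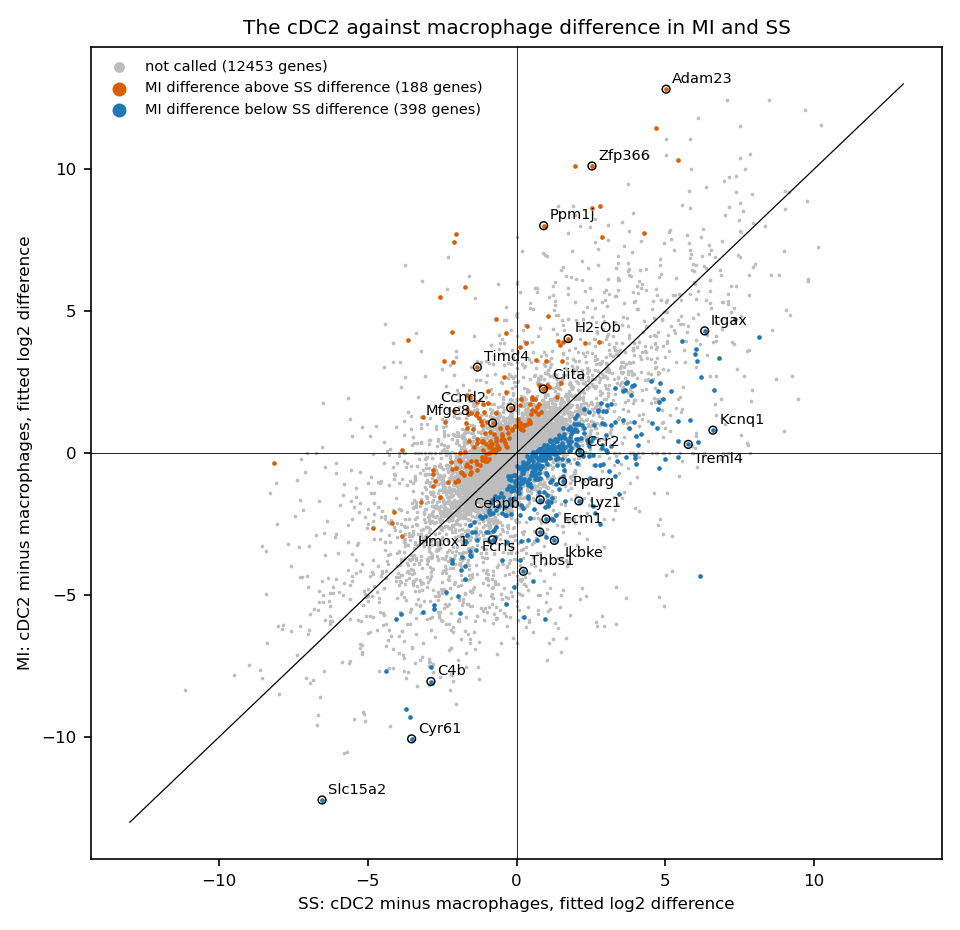
Fitted log2 difference, cDC2 minus macrophages, of each tested gene in MI (vertical axis) and in SS (horizontal axis). Genes whose difference was higher in MI (188, orange) lie above the diagonal and those whose difference was lower in MI (398, blue) below it. Fitted values of genes with no reads in a group depend on the fit and are no bound.

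Ciita and H2-Ob, both of MHC class II presentation, had a larger cDC2 minus macrophage difference in MI than in SS. Ciita averaged 332 ± 26.4 CPM in MI cDC2 and 69.5 ± 12.2 CPM in MI macrophages, against 159 ± 34.0 CPM in SS cDC2 and 85.0 ± 22.7 CPM in SS macrophages (SD, n = 3, 4, 4 and 4), so its difference was higher in MI by 1.35 ± 0.29 on the log2 scale (SE, adjusted p = 0.00367). H2-Ob averaged 166 ± 18.9 and 10.1 ± 2.57 CPM in MI against 105 ± 13.7 and 31.5 ± 11.6 CPM in SS, in the same order of sorts (difference of differences 2.30 ± 0.27, adjusted p = 1.03e-06). Both were lower in MI macrophages than in SS macrophages on average. Of the 20 class II presentation genes, these 2 were called and 0 were called in the other direction. Tmem173 (0.74 ± 0.16, adjusted p = 0.00379) and Ccnd2 (1.79 ± 0.35, adjusted p = 0.00184) also had a higher difference in MI.

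Several genes were called in opposite directions in the 2 states. Timd4 averaged 105 ± 27.8 CPM in MI cDC2 and 12.95 ± 4.68 CPM in MI macrophages, against 28.5 ± 14.8 CPM in SS cDC2 and 70.9 ± 12.2 CPM in SS macrophages (difference of differences 4.35 ± 0.47, adjusted p = 6.56e-07). Mfge8 averaged 94.4 ± 9.24 and 45.3 ± 4.04 CPM in MI against 50.7 ± 6.04 and 88.6 ± 5.45 CPM in SS (1.87 ± 0.29, adjusted p = 7.83e-05). Cd86, whose MI call was easily lost as given above, averaged 205 and 147 CPM in MI against 118 and 294 CPM in SS. In SS it was called lower in cDC2 (log2 -1.32, edgeR's adjusted p = 1.77e-07). The opposite pattern held for Cebpb, a transcription factor of monocytes and macrophages, at 375 ± 52.6 and 1172 ± 116 CPM in MI against 1298 ± 302 and 749 ± 117 CPM in SS (-2.44 ± 0.35, adjusted p = 4.86e-05). Ecm1 (-3.31 ± 0.42, adjusted p = 9.57e-06), Fcrls (-3.57 ± 0.46, adjusted p = 1.33e-05), Pparg, the lipid-sensing nuclear receptor gene (-2.54 ± 0.33, adjusted p = 4.70e-06), and Lyz1, a lysozyme gene whose reads may be shared with its copy Lyz2 (-3.78 ± 0.40, adjusted p = 6.49e-07), were likewise called lower in cDC2 in MI and higher in SS. Cebpb, Pparg and Lyz1 were chosen after their values were seen.

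The largest increases of the difference by the naming rule were in Tcf7 (at least 202-fold in MI), a transcription factor of T cells and innate lymphoid cells, Zfp366 (at least 199-fold), a zinc finger gene of dendritic cells also called DC-SCRIPT, Ppm1j, a phosphatase gene (308-fold by the ratio of counts, exact 95% interval 105 to 1499), Adam23 and Dennd3. Ppm1j was 707-fold without macrophage replicate 1 by the ratio of counts, exact 95% interval 126 to 27970.4. Tcf7 averaged 12.98 ± 10.9 CPM in MI cDC2 and 0 CPM in MI macrophages, against 5.06 ± 4.67 CPM in SS cDC2 and 1.29 ± 1.43 CPM in SS macrophages (adjusted p = 0.0228), and cDC2 replicate 1 was the highest MI library, without which the MI fold was at least 103-fold. The difference of differences of Tcf7 was lost on leaving out any of MI cDC2 replicate 1, MI macrophage replicate 4 and SS macrophage replicate 3 (adjusted p 0.0513 to 0.0628). Zfp366 averaged 12.9 ± 5.81 CPM in MI cDC2, against 2.59 ± 1.60 CPM in SS cDC2 and 0.438 ± 0.601 CPM in SS macrophages (adjusted p = 0.0171). The difference of differences of Zfp366 did not pass without SS macrophage replicate 2 (adjusted p = 0.128). The largest decreases were in Cyr61, Nrcam, Slc15a2, Kcnq1 and Treml4. Slc15a2 averaged 0 and 55.6 ± 15.8 CPM in MI against 2.43 ± 0.742 and 225 ± 57.6 CPM in SS (adjusted p = 0.0313). The difference of differences of Slc15a2 was lost on leaving out any of MI cDC2 replicate 1, MI cDC2 replicate 2, MI cDC2 replicate 3 and SS cDC2 replicate 2 (adjusted p 0.0599 to 0.102). The difference of differences of Cyr61 was lost on leaving out any of MI cDC2 replicate 1, MI macrophage replicate 2, MI cDC2 replicate 2, MI cDC2 replicate 3, MI macrophage replicate 4, SS macrophage replicate 1, SS cDC2 replicate 1, SS cDC2 replicate 2 and SS macrophage replicate 3 (adjusted p 0.05 to 0.112). The difference of differences of Nrcam was lost on leaving out any of MI cDC2 replicate 1 and SS cDC2 replicate 3 (adjusted p 0.0517 to 0.0587). Kcnq1, a potassium channel gene, averaged 2.33 ± 1.41 and 1.22 ± 2.43 CPM in MI against 45.7 ± 14.2 and 0.459 ± 0.504 CPM in SS (adjusted p = 0.0206), all its MI macrophage reads being in replicate 4. Without that library the gene was at least 23.8-fold higher in MI cDC2 (adjusted p = 1.50e-04) and the difference of differences was 1.04 on the log2 scale. The difference of differences of Kcnq1 was lost on leaving out any of MI cDC2 replicate 2 and MI cDC2 replicate 3 (adjusted p 0.067 to 0.0702). Treml4, a receptor gene of dendritic cells and macrophages, averaged 12.1 ± 7.57 and 9.80 ± 3.23 CPM in MI against 192 ± 129.8 and 3.51 ± 1.16 CPM in SS (adjusted p = 2.11e-04), and its sign in MI turned without cDC2 replicate 3. Against SS numbers 2 and 3 alone, the difference of differences did not pass for Adam23 (log2 4.78, adjusted p = 0.225), Kcnq1 (0.131), Cyr61 (0.0899) and Ccnd2 (0.0689). Against SS numbers 1 and 4 alone it did not pass for Tcf7 (adjusted p = 0.448), Kcnq1 (0.238), Zfp366 (0.114), Nrcam (0.0765) and Cyr61 (0.0524). In a fit of only the groups compared it did not pass for Tcf7 (adjusted p = 0.0533), Nrcam (0.0799) and Kcnq1 (0.052), nor without a low-count filter for Cyr61 (0.0582).

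Other decreases touched monocyte-type and macrophage genes. Ccr2 averaged 2149 ± 253 and 2125 ± 248 CPM in MI against 1838 ± 281 and 420.2 ± 63.4 CPM in SS (-2.11 ± 0.20, adjusted p = 1.71e-08), so the sorts were alike in mean level in MI and apart in SS. C4b averaged 1.37 ± 0.934 and 367 ± 92.9 CPM in MI against 22.4 ± 11.5 and 165 ± 59.4 CPM in SS (-5.17 ± 0.65, adjusted p = 1.68e-05). Thbs1 (-4.39 ± 0.74, adjusted p = 4.38e-04), Hmox1 (-2.25 ± 0.35, adjusted p = 1.18e-04), Ccl7 (-2.59 ± 0.44, adjusted p = 2.53e-04) and Irf7 (-1.41 ± 0.27, adjusted p = 0.00141) were called lower in MI cDC2 and had a lower difference in MI than in SS. Of 20 monocyte genes, 10 had a lower and 0 a higher difference in MI, and of 30 lipid handling genes 10 and 0, beside 3.05% and 1.44% of all genes. Itgax was 19.7-fold higher in MI cDC2, and its difference was larger in SS (difference of differences -2.02 ± 0.34, adjusted p = 2.81e-04). Infarction and any step of preparation that set all MI hearts apart from all SS hearts cannot be told apart here.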

How the data were processed

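Read counts per gene, deposited by the authors as 1 table per library, were used as deposited. Reads had gone through Trimmomatic 0.35 and TopHat2 2.1.0 on build mm10, with FastQC 0.11.4 and SAMtools 0.1.18 also listed, per the submitters' processing notes. Per the labels' protocols, libraries were made from 4 ng of total RNA with SMART-Seq v4 and sequenced as single reads of 75 bases on a NextSeq500. The counter, its annotation and any use of strand are not stated in these notes, so reads of overlapping genes and of near-identical copies (H2 genes, Cd209 and Ms4a families) may be split or lost. Rows of reads assigned to no gene were left out of the library sizes. Reads in no annotated feature made up 7.75% to 10.9% of all in the 7 libraries.

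Genes were kept by filterByExpr at a minimum count of 10, and 13039 were tested in R 4.3.3 with edgeR 4.0.16 (TMM factors, robust quasi-likelihood fit of 8 group means over the 31 libraries, so that all groups share the estimate of spread, and Benjamini-Hochberg adjustment over all genes). The same fit gave the SS comparison and the difference of the differences. The comparison of MI cDC2 with MI macrophages was also run on simulated counts with the same spread for every gene. The difference of differences was not tested in this way. DESeq2 1.42.0, other factors and filters, a fit of only the groups compared, a replicate block and leaving out each library were alternatives. Promoters are from RefSeq (GRCm38.p6), and positions use that build. The members and the gene lists were chosen with earlier results of these data known. Of 923 list symbols 919 were found, 4 of these under another symbol, and the rest were not found. Named were the 12 largest differences in each direction among called genes that reached 10 CPM in the higher group and did not overlap, up to 4 called members of each list per direction by adjusted p, the 5 largest differences of differences each way, and the cell type markers. Some genes the rule names are not reported here. Any other gene is given as chosen after its values were seen. Intervals and the floor of 3 reads cover counting error only, since the reads carry no molecular identifiers. No pair of replicates agreed within sampling noise (chi-square per degree of freedom 13.9 to 39.5).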

Additional observations from a re-analysis of the deposited data

Results flagged for a closer look

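Among the 4 macrophage libraries, single libraries were flagged by a gap test at the 95% level (the gap to the nearest library over the range) in the following genes. Chance alone flags about 1 in 20 groups, and 225 genes are printed here, so many of these flags can be chance. In replicate 1, Ccl7 was low at 87.9 CPM and Nfkb1 high at 77.4 CPM. In replicate 2, Arg1 (307 CPM), Ldha (859 CPM), Mertk (66.9 CPM) and the sum of mural cell markers (40.5 CPM) were high. In replicate 3, Ccnd3 was low at 60.3 CPM, and C3ar1 (1889 CPM), Clec9a (1.65 CPM), Tlr11 (2.48 CPM) and Tnip3 (28.3 CPM) were high. In replicate 4, C1qa (4719.7 CPM), Nr4a1 (1392 CPM), Oasl1 (75.3 CPM) and Kcnq1 (4.87 CPM, with no read in the other 3) were high.

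The cDC2 minus macrophage difference itself differed between MI and SS, in edgeR's test of the difference of differences, for 59 of the 225 genes printed. Among all genes tested the share was 4.49%. The 2 are not comparable, since some genes were named for this difference and others after their values were seen. The values below are the log2 size of the cDC2 minus macrophage difference, MI minus SS, and where a group had no read they depend on the fit. It was higher in MI for the presentation genes Ciita (1.35) and H2-Ob (2.30) and for Cd86 (1.80). The same held for the dendritic cell genes Zfp366 (7.58), St3gal5 (1.57) and Kit (4.91) and for the uptake genes Timd4 (4.35) and Mfge8 (1.87). It also held for Adam23 (7.79), Adamdec1 (5.88), Dennd3 (6.77), Ppm1j (7.10), Tcf7 (8.16), Ccnd2 (1.79), Clec5a (1.66) and Tmem173 (0.74).

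It was lower in MI for the surface and adhesion genes Itgax (-2.02), Itgam (-1.20), Itgav (-0.94), Adgre1 (-1.70), Fcgr2b (-0.66), Fcrls (-3.57), Clec9a (-5.56), Treml4 (-5.47) and Ltb4r1 (-3.44). It was lower for the monocyte and chemokine genes Ccr2 (-2.11), Ly6c2 (-6.02), Chil3 (-5.07), Thbs1 (-4.39), Ccl2 (-1.75) and Ccl7 (-2.59), and for the transcription factors Cebpb (-2.44), Pparg (-2.54), Bhlhe40 (-1.59) and Irf7 (-1.41). Interferon and sensor genes with a lower difference were Oasl1 (-1.56), Zbp1 (-1.90), Ikbke (-4.35), Tlr8 (-1.80) and Tlr13 (-0.99). Lipid, iron and lysosomal genes were Apoe (-1.78), Lgals3 (-1.81), Pla2g7 (-1.30), Ptgs1 (-2.25), Hmox1 (-2.25), Slc11a1 (-1.90), Cp (-3.29), Lamp1 (-0.90) and Lyz1 (-3.78). The others were C4b (-5.17), Ecm1 (-3.31), F13a1 (-2.51), Plau (-1.06), Anxa1 (-0.90), Cycs (-0.93), Cyr61 (-6.54), Nrcam (-5.72), Slc15a2 (-5.68) and Kcnq1 (-5.80).

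Some of these calls rested on single libraries out of 15 left out in turn, by edgeR's adjusted p. The call was lost in 12 such fits for Cp (adjusted p 0.0536 to 0.161), in 11 each for Kit (0.0592 to 1.00) and Plau (0.0504 to 0.0963), and in 9 for Bhlhe40 (0.0521 to 0.0966). Kit fell to a log2 value of 0.46 without SS macrophage replicate 2 and turned to -1.14 against SS numbers 1 and 4 alone. Itgav and Tlr13 lost the call in 3 fits each (0.0544 to 0.0673 and 0.0622 to 0.0745), both without MI cDC2 replicates 2 and 3 and SS cDC2 replicate 1. Clec9a lost it without MI macrophage replicate 3 (0.424) and Cycs without MI cDC2 replicate 1 (0.0581). Against SS numbers 1 and 4 alone the call was lost for Cp (adjusted p = 0.336), Plau (0.241), Apoe (0.128), Lamp1 (0.103), Tlr13 (0.0869) and Bhlhe40 (0.0844), and against SS numbers 2 and 3 alone for Clec9a (0.0885), Clec5a (0.0588), St3gal5 (0.0584), Itgav (0.0556) and Bhlhe40 (0.0506). A fit of only the groups compared lost it for Kit (0.0810), Tlr13 (0.0657) and Clec9a (0.0509), no low-count filter for Kit (0.0750), Cp (0.0722) and Bhlhe40 (0.0592), and upper-quartile factors for Plau (0.0541). Adam23, Ccnd2, Cyr61, Nrcam, Slc15a2, Tcf7, Zfp366 and Kcnq1 are given with the report's comparison of the 2 states.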

How the results depend on the processing

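Of 215 printed genes called between MI cDC2 and MI macrophages, 206 kept their call and direction under all 14 alternatives, and the 9 exceptions are given with their values in the report. The calls numbered 1373 to 1688 higher and 1204 to 1550 lower with 1 library left out, and 1640 to 1926 higher and 1532 to 1889 lower under the other planned settings. Ccr2, which was not called, turned sign with RLE (-0.0071) and upper-quartile factors (-0.0070), a minimum count of 50 (-0.00088), the replicate block (-0.023) and DESeq2 (-0.0071), and ranged over -0.083 to 0.065 with 1 library left out, the negative values being those without cDC2 replicate 3 or macrophage replicate 4. Clec9a ranged over -1.09 to 2.07 and Treml4 over -0.30 to 0.65, neither called. The causes were not tested. The difference between MI and SS was called for 414 to 642 genes with 1 of 15 libraries left out, 518 to 815 under the other planned settings, and 458 and 507 against SS libraries numbered 1 and 4 or 2 and 3. These SS settings were chosen after seeing the data. That difference turned sign for Kit against SS numbers 1 and 4 (-1.14), and for Kcnq1 ranged over -6.60 to 1.04 with 1 library left out. Deviations of same-numbered cDC2 and macrophage libraries 1, 2 and 3 correlated at r 0.0383, 0.0283 and 0.00854 across genes and at 0.208, 0.271 and 0.0100 across genes above a mean log2 CPM of 5. Across the latter genes, differently numbered pairs lay between -0.375 and 0.176, below same-numbered pairs 1 and 2. Not every same-numbered pair passed 0.1, so the numbers were not taken to pair samples, but whether they do is not settled. With the replicate block 1926 genes were higher and 1701 lower, and 706 differed between MI and SS, but not Kcnq1 (adjusted p = 0.299), Cp (0.0826), Kit (0.0661) and Zfp366 (0.0537). Of 1092 counts of list members recomputed, 78 moved by more than 1.5 times, nearly all counts under 5. Genes with few reads are limited by depth, and no claim of absence rests on a count of 0.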
